A study of Mus musculus with 29 samples.

Results

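The antioxidant and selenoprotein genes described here are the selenium carrier Selenop, the glutathione peroxidases Gpx1, Gpx3 and Gpx4, the thioredoxin reductase Txnrd1, the NRF2 target genes Nqo1, Hmox1, Gclm and Srxn1, and the extracellular superoxide dismutase Sod3. They were chosen by name, as the rows of the count table whose Ensembl identifier maps to 1 of these symbols. The choice was made with earlier results of these data known, so counts of members called are descriptions beside the share of all genes. All 10 were found among the 56953 features of the table, and all 10 passed the filter on low counts that left 8853 genes for testing. Bulk RNA was measured in 29 libraries of cultured stromal vascular fraction (SVF), the cells other than adipocytes that are released when white fat is digested. The mice were adult C57BL6/J animals with no other allele named, and every culture was grown for 4 days in PM1 medium with 1 nM bFGF (basic fibroblast growth factor) until confluent, before any adipogenic stimulus. The groups were iWAT male (inguinal, subcutaneous fat, n = 10), iWAT female (n = 9), pgWAT male (perigonadal, visceral fat, n = 4) and pgWAT female (n = 6). The labels give a well of the library plate for each sample but neither an animal nor an experiment. The study's methods describe wells as technical replicates of a few independent experiments, so all p-values below measure the spread between wells.

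Libraries held between 315316 and 1102234 counts, and expression is given as CPM, counts scaled to a common library total with TMM factors. A gene without counts could still lie at up to 3 counts, which make 2.72 to 9.51 CPM in single libraries, a limit that covers counting error only. Fibroblast markers (Pdgfra, Col1a1, Col3a1, Dcn and Lum) were detected in every library, with a summed level of 3132 to 15569 CPM. The X-inactivation transcript Xist and 4 Y-linked genes matched the labelled sex in 19 of 19 iWAT libraries and in 5 of 10 pgWAT libraries. Against their label, pgWAT male replicates 2 and 4 carried Xist (24 and 60 counts) with 1 and 0 Y-linked counts. Likewise pgWAT female replicates 2 and 3 carried Y-linked counts (23 and 26) without Xist. In pgWAT female replicate 1 both were found, with 7 counts of Xist and 10 Y-linked counts. Groups were kept as labelled, and the depot and sex comparisons that use pgWAT are given with all libraries and again without these 5 conflicting libraries, which leaves 2 pgWAT male and 3 pgWAT female libraries. The study's own text gives other group sizes for these cultures than the labels do, and the labels were used. Because these are bulk samples, fewer cells of a type and less RNA per cell cannot be told apart.

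Glutathione peroxidases reduce hydrogen peroxide and lipid peroxides at the expense of glutathione, and thioredoxin reductase keeps thioredoxin reduced. Several of these enzymes carry selenocysteine, the amino acid with selenium in its side chain, which is read from an in-frame TGA codon that would otherwise end translation, and Selenop transports selenium between tissues because it carries many of them. NRF2 (Nfe2l2) is a transcription factor that KEAP1 marks for degradation. Under oxidative or electrophilic stress it escapes KEAP1 and binds antioxidant response elements near genes such as Nqo1, Hmox1, Gclm, Txnrd1 and Srxn1.

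Selenop, Gpx1, Gpx3, Gpx4 and Txnrd1 share the selenocysteine codon, and the coding sequence around it is shown because it is what makes them selenoproteins. In the Gencode vM21 transcripts (build GRCm38), Selenop held 10 in-frame TGA codons, the first at codon 59 and the last at codon 377 of 381, stop codon included. Gpx1, Gpx3, Gpx4 and Txnrd1 held 1 each, and that of Txnrd1 was codon 612 of 614, just before the C-terminal glycine codon and the stop codon. The other members, Nqo1, Hmox1, Gclm, Srxn1 and Sod3, had 0 annotated selenocysteine codons. The sequences run 5′ to 3′ on the coding strand with the selenocysteine codon in capitals.
Selenop, first selenocysteine codon: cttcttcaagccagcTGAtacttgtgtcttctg
Selenop, last selenocysteine codon: accaggaagtgaaaaTGAcattcaaactaa
Gpx1: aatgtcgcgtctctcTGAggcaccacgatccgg
Gpx3: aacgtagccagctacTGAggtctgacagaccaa
Gpx4: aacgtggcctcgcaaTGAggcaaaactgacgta
Txnrd1: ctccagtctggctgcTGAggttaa

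Promoters of RefSeq (GRCm38.p6, 250 bases before to 50 after the start) were at hand for 8 of the 10 genes. They were searched on both strands for TGACNNNGC, the core of the antioxidant response element, and the search was not checked for overlap with other motifs. Of all 32851 promoters of this length, 12.4% held the core, and of the 27025 genes with a promoter in the table, 14.0% had it in at least 1. It was found in 1 promoter each of Gclm, Srxn1 and Txnrd1, on the reverse strand in each, and was not in the windows of Selenop, Gpx1, Gpx3, Gpx4 or Nqo1. These matches are shown with the core in capitals because the genes are NRF2 targets by their background, and a match is a run of letters, not a site.
Gclm, promoter chr3:122245307-122245606, + strand gene, match beginning 134 bases before the start: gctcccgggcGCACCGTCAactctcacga
Srxn1, promoter chr2:152105274-152105573, + strand gene, match beginning 28 bases after the start: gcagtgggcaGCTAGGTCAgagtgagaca
Txnrd1, promoter chr10:82858956-82859255, + strand gene, match beginning 92 bases before the start: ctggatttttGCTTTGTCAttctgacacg

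Sequence shared with other genes touched 2 of the 10. In Gpx4, 66.4% of its 31-base words also occur in the pseudogene Gpx4-ps2, but the table assigned Gpx4-ps2 137 counts against 20628 of Gpx4 over all libraries. In Selenop, 19.9% of the words lie in Ccdc152, a gene on the opposite strand, which had 4 counts in all. In the other 8 genes at most 2.97% of the words were shared.

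Levels between genes were compared as CPM per kb of the longest protein-coding transcript. The counts hold reads with and without molecular identifiers together. Whether both kinds scale with transcript length was not tested, so the order between genes is approximate. In iWAT male cultures Gpx4, the peroxidase that protects membrane lipids, was the most abundant of the 10 at 1250 ± 207 CPM per kb (SD, n = 10). Cytosolic Gpx1 followed at 429 ± 107 CPM per kb and Hmox1 at 309 ± 55.6 CPM per kb (SD, n = 10), and their mean ± SD ranges overlapped. Selenop at 168 ± 53.3 CPM per kb and secreted Gpx3 at 160 ± 40.6 CPM per kb lay next and were not separated by their spread. Nqo1, Txnrd1 and Srxn1 had 59.9 ± 19.9, 47.9 ± 10.8 and 45.5 ± 12.9 CPM per kb, again within each other's spread. Sod3 at 4.02 ± 2.19 CPM per kb and Gclm at 3.27 ± 1.61 CPM per kb were lowest. In the libraries labelled pgWAT female, Gpx3 at 1598 ± 697 CPM per kb (SD, n = 6) and Gpx4 at 1293 ± 129 CPM per kb were the most abundant, with overlapping spreads. Nqo1 at 8.08 ± 3.12 CPM per kb lay below Sod3 at 26.3 ± 4.67 CPM per kb.

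**Figure D1:**
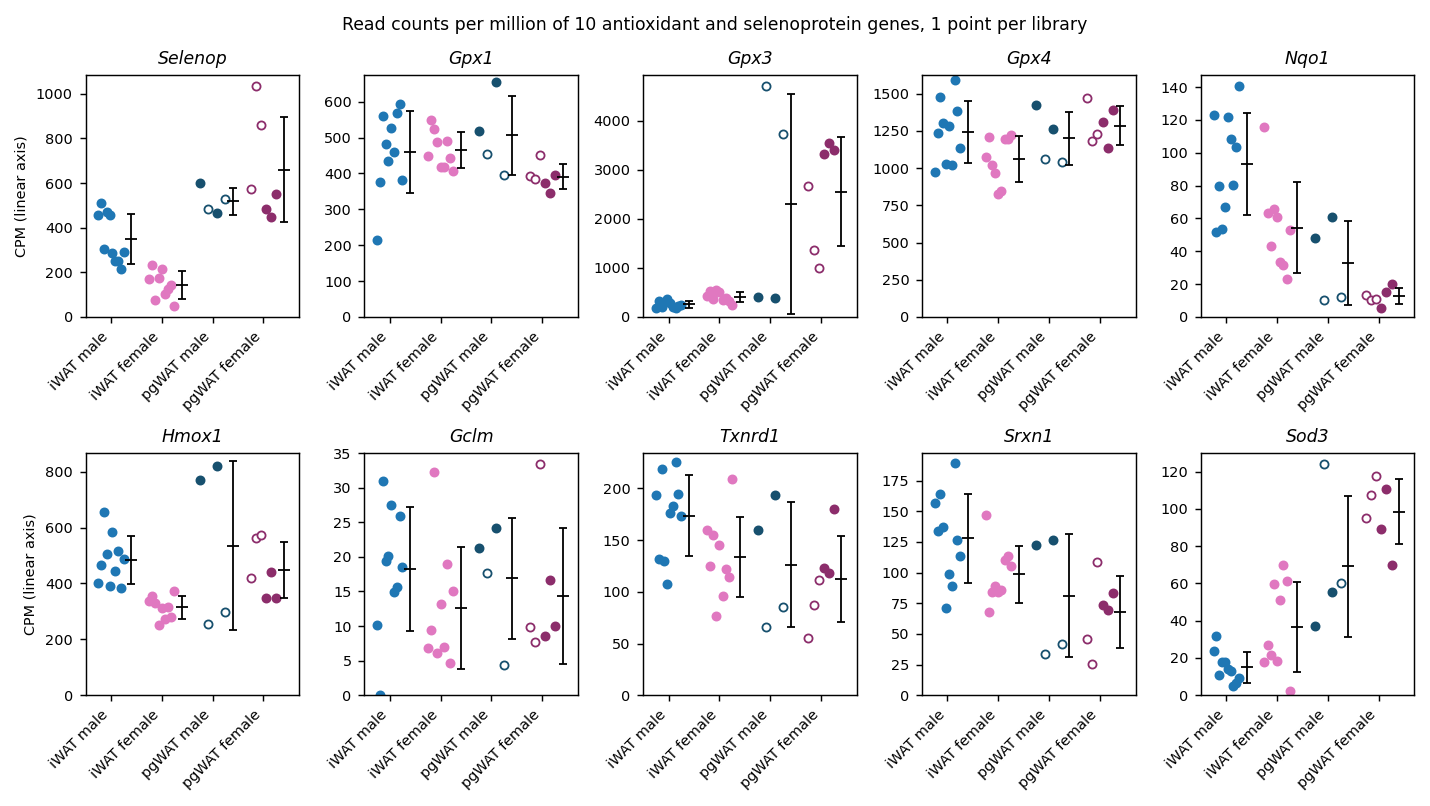
Each panel shows 1 gene, with a point for each of the 29 libraries by labelled group and CPM on a linear axis that starts at 0. Black bars are mean ± SD, and open points are the 5 pgWAT libraries whose sex-linked transcripts went against or only partly met their label. Gpx3 reached 4704 CPM in pgWAT and stayed between 182 and 556 CPM in iWAT, while Gpx1 and Gpx4 lay at similar levels in all groups.

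The depot contrast (pgWAT minus iWAT, both labelled sexes weighted equally) asked which depot differences were present after culture. Gpx3, Sod3 and Selenop were higher in pgWAT and Nqo1 and Srxn1 were lower, whereas Gpx1, Gpx4, Hmox1, Gclm and Txnrd1 did not pass the test. These 5 of 10 genes called at an FDR below 0.05 (edgeR quasi-likelihood test, Benjamini-Hochberg over all genes) stand against 38.1% of all genes tested, with 20.1% higher and 17.9% lower. In none of the 10 genes did the libraries of the depots separate completely, which 2.12% of all genes did. Without the 5 libraries that conflict with their labels the count was again 5, against 24.7% of all genes, but Hmox1 was called in place of Srxn1.

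**Figure D2:**
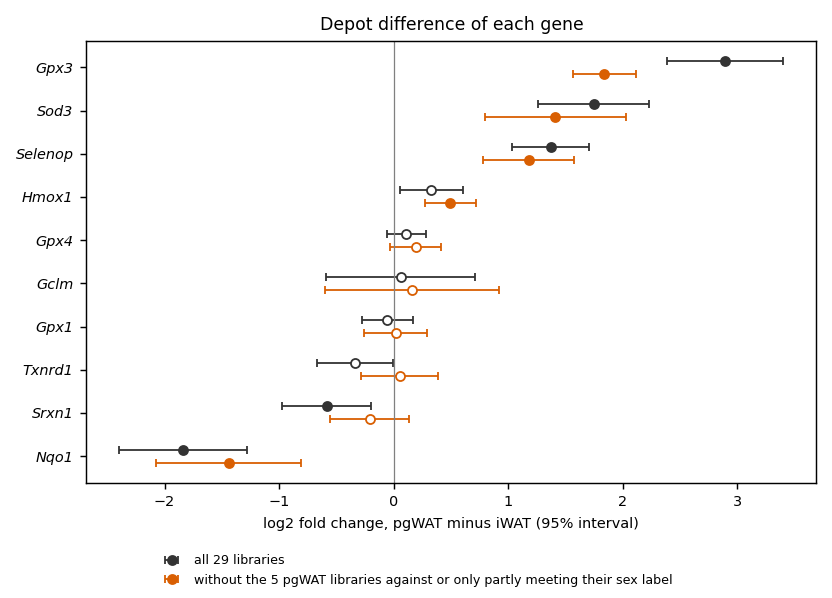
The log2 fold change of each gene (pgWAT minus iWAT, horizontal axis) is plotted with its 95% interval, for all 29 libraries in black and without the 5 conflicting pgWAT libraries in orange. Filled points passed an FDR of 0.05. Gpx3 moved from 2.90 to 1.84, and Srxn1 from -0.59 to -0.21, when these libraries were left out.

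Gpx3, the glutathione peroxidase secreted into plasma and extracellular space, showed the largest depot difference of the 10. In iWAT male it ranged from 182 to 365 CPM with a median of 236, and in iWAT female from 249 to 556 CPM with a median of 378. In the libraries labelled pgWAT male it was 407, 4704, 387 and 3716 CPM in replicates 1 to 4. In those labelled pgWAT female it was 2675, 1360, 988, 3319, 3544 and 3395 CPM in replicates 1 to 6. So 8 of the 10 pgWAT libraries lay above the highest iWAT library and pgWAT male replicates 1 and 3 lay inside the iWAT range. The log2 fold change was 2.90 ± 0.26 (SE, FDR = 5.73e-11), and all 10 pgWAT libraries were above the iWAT mean. Without the conflicting libraries it was 1.84 ± 0.14 (FDR = 1.25e-11), a change of more than 1.5 times in fold.

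The spread of Gpx3 within pgWAT went with other measured values of the same wells. Replicates 1 and 3 of pgWAT male, which matched their label with 34 and 32 Y-linked counts and 0 of Xist, had the lowest Gpx3 of pgWAT, the highest Hmox1 (772 and 820 CPM) and the highest summed level of 14 macrophage markers (8318 and 8944 CPM). In replicates 2 and 4, with 24 and 60 counts of Xist, Hmox1 was 253 and 297 CPM and the macrophage sum was 1368 and 1290 CPM. For pgWAT female replicates 2 and 3, which carried Y-linked counts, Gpx3 was 1360 and 988 CPM and the macrophage sum 3903 and 3746 CPM. In pgWAT female replicates 4, 5 and 6, with 57, 58 and 22 counts of Xist, Gpx3 was 3319 to 3544 CPM and the macrophage sum 854 to 946 CPM. The 4 pgWAT libraries with the highest macrophage sums were thus the 4 with the lowest Gpx3. In iWAT, where Gpx3 stayed at or below 556 CPM, the macrophage sum was 1585 to 2748 CPM in male and 733 to 1226 CPM in female libraries. Of the 14 macrophage markers Cd163 was at 0 in all libraries labelled pgWAT female, and between 0 and 4 markers were at 0 in single pgWAT libraries. The summed level of the 5 fibroblast markers was also uneven. It was 12760 to 15569 CPM in the 5 conflicting libraries and 3132 to 8327 CPM in the other 24 libraries of both depots, with 5550 and 4657 CPM in pgWAT male replicates 1 and 3 and 7057 to 8170 CPM in pgWAT female replicates 4 to 6. The part of the macrophage and fibroblast markers in the Gpx3 values was not tested.

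**Figure D3:**
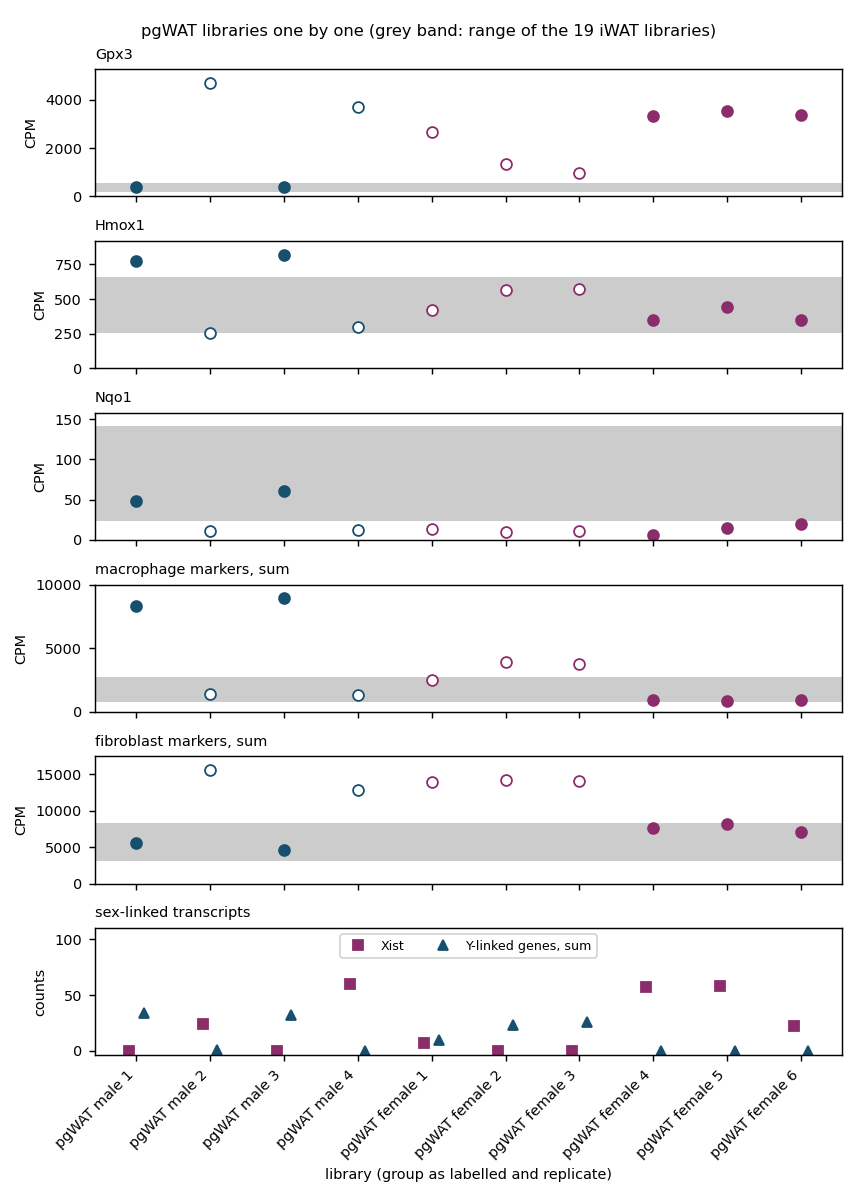
The 10 pgWAT libraries are shown one by one for Gpx3, Hmox1 and Nqo1, for the summed macrophage and fibroblast markers (CPM) and for the sex-linked transcripts (counts of Xist, and of 4 Y-linked genes summed). Grey bands are the range of the 19 iWAT libraries, and open points are libraries that went against or only partly met their sex label. Replicates 1 and 3 of pgWAT male stand apart with Gpx3 of 407 and 387 CPM, Hmox1 of 772 and 820 CPM and macrophage sums of 8318 and 8944 CPM.

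Selenop, the selenium carrier, was higher in pgWAT. It ranged from 217 to 512 CPM in iWAT male (median 298) and from 50.4 to 232 CPM in iWAT female (median 141). It was 601, 482, 465 and 527 CPM in the libraries labelled pgWAT male and 447 to 1037 CPM (median 563) in those labelled pgWAT female. All pgWAT libraries lay above the iWAT mean, and the depots overlapped through 4 iWAT male libraries with 457 to 512 CPM. The log2 fold change was 1.37 ± 0.17 (SE, FDR = 9.79e-08), and 1.18 ± 0.20 (FDR = 5.15e-05) without the conflicting libraries. It was called in all 29 fits that left out 1 library, with values of 1.28 to 1.43.

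Sod3, the copper-zinc superoxide dismutase that is bound to the extracellular matrix, was higher in pgWAT at a much lower level. It ranged from 5.19 to 32.0 CPM in iWAT male (median 13.5) and from 2.52 to 69.7 CPM in iWAT female (median 26.8). It was 37.3, 124, 55.4 and 60.4 CPM in the libraries labelled pgWAT male and 70.0 to 118 CPM (median 101) in those labelled pgWAT female. The log2 fold change was 1.75 ± 0.25 (SE, FDR = 9.29e-07), higher than the iWAT mean in 10 of 10 pgWAT libraries, and 1.41 ± 0.31 (FDR = 0.00113) without the conflicting libraries. In the iWAT libraries Sod3 rested on 1 to 55 counts, so single low values are near the limit of detection.

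Of the intracellular selenoproteins, Gpx1, Gpx4 and Txnrd1 were not called between depots. Gpx1 had 462 ± 87.7 CPM in iWAT (SD, n = 19) and 437 ± 90.9 CPM in pgWAT (SD, n = 10), with a log2 fold change of -0.06 and a 95% interval from -0.27 to 0.16. It was 0.02 (FDR = 0.954) without the conflicting libraries. Gpx4 had 1158 ± 202 CPM in iWAT and 1252 ± 149 CPM in pgWAT, with a log2 fold change of 0.11 and an interval from -0.06 to 0.29, and it was at 0.19 (FDR = 0.226) without the conflicting libraries. Both intervals exclude the size of the Selenop, Gpx3 and Sod3 differences. Txnrd1 had 155 ± 43.1 CPM in iWAT and 118 ± 47.1 CPM in pgWAT, and its log2 fold change of -0.34 ± 0.17 (SE) did not pass the test (FDR = 0.118). Of the alternatives run, it passed only when pgWAT male replicate 3 was left out (-0.48, FDR = 0.029). No lower level was left without the conflicting libraries, at 0.05 (FDR = 0.867).

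Nqo1, the quinone reductase often read as a gauge of NRF2 activity, was the gene that fell most in pgWAT. It ranged from 52.0 to 141 CPM in iWAT male (median 92.1) and from 23.2 to 116 CPM in iWAT female (median 52.9). It was 48.0, 10.6, 61.1 and 12.1 CPM in the libraries labelled pgWAT male and 5.67 to 20.0 CPM (median 12.1) in those labelled pgWAT female. Except for pgWAT male replicates 1 and 3, the pgWAT libraries lay below the lowest iWAT library. The log2 fold change was -1.84 ± 0.28 (SE, FDR = 3.49e-06), and -1.44 ± 0.32 (FDR = 0.00116) without the conflicting libraries. Some pgWAT values rested on as few as 4 counts.

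Srxn1, which repairs overoxidised peroxiredoxins, had 114 ± 33.6 CPM in iWAT (SD, n = 19) and 73.2 ± 36.9 CPM in pgWAT (SD, n = 10). Its log2 fold change of -0.59 ± 0.20 (SE, FDR = 0.0182) did not pass when pgWAT male replicate 2 was left out (FDR = 0.0601), when replicate 4 was left out (FDR = 0.067) and without all conflicting libraries (-0.21, FDR = 0.413). Hmox1, the enzyme that breaks down heme, had 404 ± 110 CPM in iWAT and 483 ± 195 CPM in pgWAT, and its log2 fold change of 0.33 ± 0.14 did not pass the test (FDR = 0.0613). It passed without the conflicting libraries (0.50, FDR = 0.00141) and without single libraries, namely iWAT male replicate 3 (FDR = 0.0421), pgWAT male replicates 2 (FDR = 0.00709) and 4 (FDR = 0.0136) and pgWAT female replicates 4 (FDR = 0.0461) and 6 (FDR = 0.0465). Gclm, the modifier subunit of the enzyme that starts glutathione synthesis, had 15.6 ± 9.11 CPM in iWAT and 15.4 ± 9.01 CPM in pgWAT. It was at 0 in iWAT male replicate 2, where 3 counts make 5.70 CPM, and its log2 interval of -0.59 to 0.71 takes in a difference of 1.5 times in either direction, which was not detectable at this depth. Its log2 fold change without the conflicting libraries was 0.16 (FDR = 0.809).

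Within the labelled sexes the depot differences of Gpx3, Nqo1 and Sod3 were called in both. Against iWAT male, the libraries labelled pgWAT male had a log2 fold change of 3.17 ± 0.37 for Gpx3 (SE, FDR = 1.02e-07), -1.51 ± 0.38 for Nqo1 (FDR = 0.00396) and 2.12 ± 0.38 for Sod3 (FDR = 0.00012). These 3 of 10 genes stand against 20.3% of all genes. Selenop did not pass at 0.56 (FDR = 0.121), but it did with well column as a factor (0.86, FDR = 0.0106) and within column 9 (0.86, FDR = 0.00138). Gpx3 kept its call but fell to 2.56 without pgWAT male replicate 2, and Srxn1 passed without replicate 1 (-0.93, FDR = 0.0347) or replicate 3 (-0.97, FDR = 0.031). With the conflicting libraries left out, 2 genes were called against 9.48% of all genes, Hmox1 at 0.71 (FDR = 0.0037) and Sod3 at 1.56 (FDR = 0.0447), while Gpx3 was 0.63 (FDR = 0.0823) and Nqo1 was -0.76 (FDR = 0.285). Within well column 9 alone, where both pgWAT male libraries were conflicting ones, Gpx3 was 4.14 (FDR = 1.28e-09), Nqo1 was -3.17 (FDR = 5.06e-06) and Hmox1 turned to -1.02 (FDR = 0.00108).

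Against iWAT female, the libraries labelled pgWAT female had a log2 fold change of 2.18 ± 0.24 for Selenop (SE, FDR = 1.18e-08), 2.63 ± 0.35 for Gpx3 (FDR = 6.96e-07), -2.17 ± 0.42 for Nqo1 (FDR = 0.000185) and 1.38 ± 0.32 for Sod3 (FDR = 0.00129). Hmox1 was called at 0.52 ± 0.19 (FDR = 0.0391), which makes 5 of 10 against 26.8% of all genes. The Hmox1 call was lost without iWAT female replicate 4, 5, 6 or 8 or pgWAT female replicate 1, 2, 3 or 5, with an FDR of 0.0504 to 0.113. It was lost as well with well column as a factor (0.35, FDR = 0.344), within column 8 (0.40, FDR = 0.0698), with limma-voom (0.50, FDR = 0.0548), with library totals alone (0.47, FDR = 0.0509) and without the conflicting libraries (0.28, FDR = 0.217). Without the conflicting libraries Selenop (1.76, FDR = 1.1e-05), Gpx3 (3.05, FDR = 5.29e-14), Nqo1 (-2.13, FDR = 0.00197) and Sod3 (1.26, FDR = 0.0165) were called, against 19.1% of all genes. Within well column 8 alone, where the 3 pgWAT female libraries matched their label, Selenop was 2.00 (FDR = 2.7e-08), Gpx3 was 3.27 (FDR = 2.15e-13) and Nqo1 was -1.26 (FDR = 0.0346), and Sod3 was 0.62 (FDR = 0.0558).

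In iWAT, where all libraries matched their label, 3 of the 10 genes differed between male and female cultures in the fit of all 29 libraries. That stands against 3.22% of all genes (1.08% higher and 2.13% lower in male). The spread in this fit is estimated over the pgWAT libraries as well. Selenop was higher in male cultures by 1.28 ± 0.22 on the log2 scale (SE, FDR = 0.000415), and the groups overlapped between 217 and 232 CPM. Hmox1 was higher in male by 0.63 ± 0.17 (FDR = 0.0263), and its groups did not overlap, with 385 to 657 CPM in male and 252 to 373 CPM in female, as was the case for 0.52% of all genes. Sod3 was lower in male by a log2 fold change of -1.27 ± 0.34 (FDR = 0.0285). In iWAT male the macrophage sum was 1585 to 2748 CPM against 733 to 1226 CPM in iWAT female. The epithelial sum (Epcam, Krt8, Krt18 and Cdh1) was 0 to 8.50 CPM against 32.4 to 1438 CPM. The 1438 CPM was iWAT female replicate 9 alone, and the other iWAT female libraries had 32.4 to 267 CPM. That replicate also had the lowest Selenop (50.4 CPM) and Sod3 (2.52 CPM) of its group. The part of these marker sums in the sex differences was not tested.

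With all libraries in the fit, the sex calls of Hmox1 and Sod3 in iWAT lay near the threshold. They were kept in 26 and 24 of the 29 fits that left out 1 library. The log2 fold change ranged from 0.57 to 0.66 for Hmox1 and from -1.43 to -1.10 for Sod3 in those fits. Both passed without the 5 conflicting pgWAT libraries, a fit that keeps all iWAT libraries (FDR = 0.000271 and 0.0173). Leaving these 5 out kept the log2 fold changes of Hmox1 (0.63) and Gpx3 (-0.69). The SE fell from 0.166 to 0.106 for Hmox1 and from 0.317 to 0.141 for Gpx3. Hmox1 did not pass without iWAT male replicate 3 (FDR = 0.0569), iWAT female replicate 4 (FDR = 0.057) or iWAT female replicate 6 (FDR = 0.0545), nor within well column 7 (0.52, FDR = 0.0502). Sod3 did not pass without iWAT female replicates 4, 6, 7 or 8 or iWAT male replicate 10 (FDR of 0.0529 to 0.0789), with well column as a factor (FDR = 0.131) or within column 7 (-0.84, FDR = 0.274). With limma-voom it did not pass either (-1.02, FDR = 0.203). Without iWAT female replicate 4 or 6, Selenop alone was called. Gpx3 was lower in male with a log2 fold change of -0.69 ± 0.32 that did not pass (FDR = 0.276), but it did pass in a fit of the iWAT groups alone (FDR = 0.00575) and within column 7 (-0.94, FDR = 0.00435). It also passed with no filter (FDR = 0.0256), with well column as a factor (-1.12, FDR = 0.0492) and without the conflicting libraries (FDR = 0.0023). Nqo1 at 0.77 ± 0.26 (FDR = 0.107) passed without iWAT female replicate 1 (0.99, FDR = 0.0235), with no filter (FDR = 0.0156) and without the conflicting libraries (FDR = 0.041).

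Position on the library plate, which the labels give, went along with the level of some genes within a group. Blocks were formed after the values had been seen, as wells of 1 group in 1 column with a new block after a gap of more than 6 rows, and no test was made. In iWAT male, Selenop was 457 to 512 CPM in the 4 libraries of column 7, rows A to D, and 217 to 291 CPM in the 3 libraries of rows N to P of that column. In column 9 it was 251 to 305 CPM, so within the group the first block lay apart. In iWAT female, Selenop was 172 to 232 CPM in column 7, 103 to 141 CPM in column 8, and 50.4 and 75.3 CPM in the single wells of columns 9 and 10. Sod3 in iWAT female was 17.9 to 59.7 CPM in column 7 and 51.1 to 69.7 CPM in column 8, and 2.52 CPM in the single well of column 9. The labels do not say whether a block was 1 experiment, so plate position and culture cannot be told apart.

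**Figure D4:**
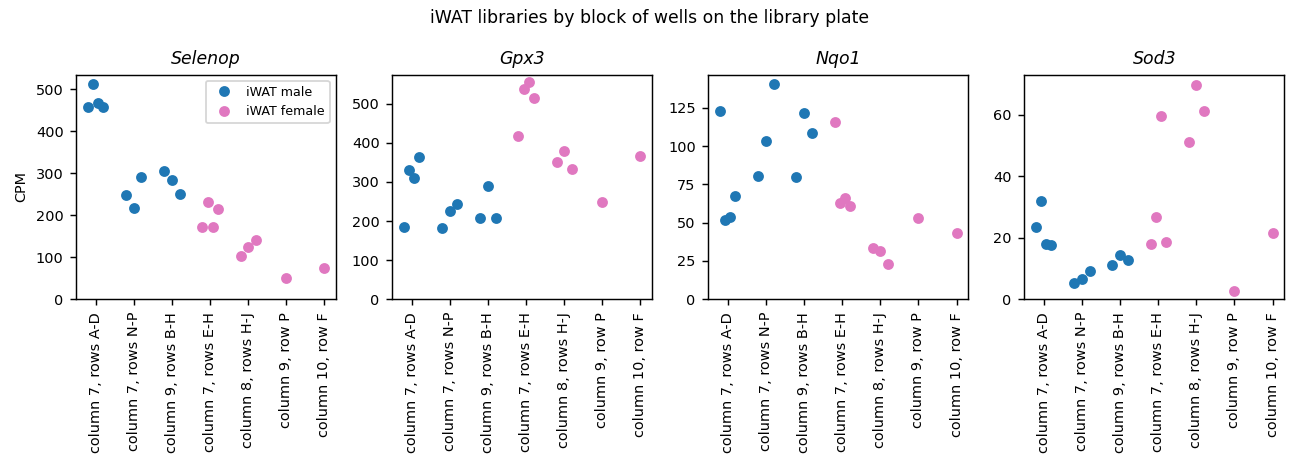
CPM of Selenop, Gpx3, Nqo1 and Sod3 in the 19 iWAT libraries, with 1 point per library, by block of wells on the library plate (column and rows as labelled). The iWAT male libraries of column 7, rows A to D, carry the highest Selenop (457 to 512 CPM), and the iWAT female libraries of column 8 the lowest Nqo1 (23.2 to 33.7 CPM).

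In pgWAT 0 of the 10 genes were called between the labelled sexes by edgeR, against 0.0113% of all genes, with 2 at an unadjusted p below 0.05 (Gpx1 and Nqo1). DESeq2 and limma-voom also called 0. Without the conflicting libraries, with 2 libraries against 3, 3 genes were called against 5.65% of all genes. Gpx3 was then lower in male (-3.11 ± 0.31, SE, FDR = 1.43e-08), and Nqo1 (2.14 ± 0.60, FDR = 0.0253) and Hmox1 (1.07 ± 0.20, FDR = 0.000674) were higher in male. The macrophage sums of those libraries were 8318 and 8944 CPM in male and 854 to 946 CPM in female, as above.

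The depot by sex contrast tested whether the depot difference itself differed between labelled sexes. Selenop alone was called, at -1.62 ± 0.36 (SE, FDR = 0.0489), against 0.181% of all genes. The call was held in 9 of 29 fits without 1 library, those that left out iWAT male replicate 7, 8 or 9, iWAT female replicate 2, 5 or 9, pgWAT male replicate 1 or pgWAT female replicate 4 or 5. In the other 20 fits the FDR was 0.0523 to 0.129, and without the conflicting libraries the value was -1.16 (FDR = 0.218). Gpx3 had 0.54 ± 0.53 (FDR = 0.827) with all libraries and turned to -2.42 (FDR = 9.14e-06) without the conflicting ones, where 2.68% of all genes were called.

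The wider gene lists of the same pathways were counted in the depot contrast. The 80 tested genes of all lists together, the 10 members included, had a median log2 fold change of 0.00 beside 0.01 over all genes. Of the 80, 25 were higher and 13 were lower in pgWAT, with 3 and 2 of these being members. That is 31.2% higher and 16.2% lower, against 20.1% and 17.9% of all genes. With the conflicting libraries left out, 17 were higher and 7 lower (21.2% and 8.75%), against 13.2% and 11.5% of all genes. Of 19 tested selenoproteins 6 were higher and 2 lower, or 42.1% called beside 38.1% of all genes, which is near the background, and 5 and 1 without the conflicting libraries. Beside Gpx3 and Selenop, the largest changes were those of Dio3, which inactivates thyroid hormone, and of the small nuclear redox protein Selenoh. Dio3 ranged from 4.13 to 23.6 CPM in iWAT and from 24.2 to 113 CPM in pgWAT, a log2 fold change of 2.13 ± 0.19 (FDR = 7.7e-11) with no overlap of the depots, and of 1.70 (FDR = 1.03e-06) without the conflicting libraries. Selenoh fell by 1.02 on the log2 scale (FDR = 3.08e-05). Of 5 tested genes for selenoprotein synthesis and uptake only Scly, which frees selenium from selenocysteine, was called (0.62, FDR = 0.00501). Of 5 tested glutathione peroxidases 3 were higher, Gpx3 with Gpx7 (0.42, FDR = 0.0016) and Gpx8 (0.27, FDR = 0.0488), both of the endoplasmic reticulum. These lists of 5 had 20% and 60% called, beside 38.1% of all genes, and 20% each without the conflicting libraries, beside 24.7%.

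Of 23 tested NRF2 target genes 4 were higher and 6 lower, with a median log2 fold change of -0.20. The share called was 43.5%, near the 38.1% of all genes, and without the conflicting libraries 5 were higher and 2 lower, or 30.4% beside 24.7%. The largest beside Nqo1 were the glutathione transferase Gsta4 (-0.92, FDR = 0.00895), malic enzyme Me1 (0.73, FDR = 8.04e-05) and the exporter Abcc1 (-0.63, FDR = 0.000179). Nfe2l2, which encodes NRF2, was itself lower in pgWAT, at 160 ± 31.3 CPM in iWAT (SD, n = 19) and 102 ± 19.3 CPM in pgWAT (SD, n = 10), with a log2 fold change of -0.67 ± 0.12 (FDR = 2.77e-05), and of -0.86 (FDR = 8.66e-05) without the conflicting libraries. Keap1 did not pass (0.21, FDR = 0.192), and Bach1, a repressor of Hmox1, was too low to test at 8.95 ± 4.43 CPM in iWAT and 13.2 ± 7.51 CPM in pgWAT. Of 8 tested regulators 4 were higher, among them the small MAF partners Mafk (1.15, FDR = 6.81e-06) and Maff (0.64, FDR = 0.0202) and the ubiquitin ligase scaffold Cul3 (0.50, FDR = 0.0175), and Nfe2l2 was the 1 that was lower. This share of 62.5% stands beside 38.1% of all genes. Without the conflicting libraries 1 regulator was higher and 1 lower, or 25% beside 24.7%.

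**Figure D5:**
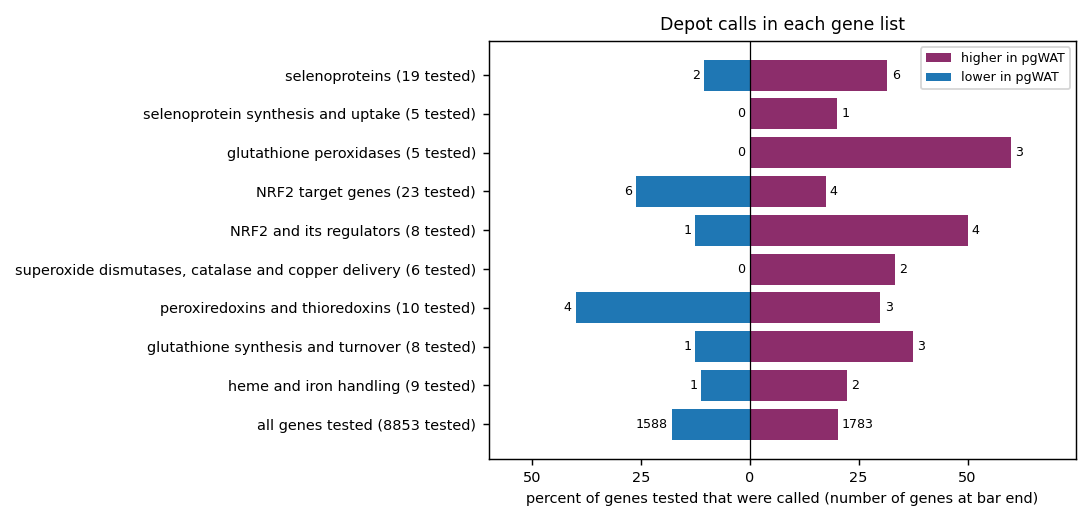
Share of the tested genes of each list that was called in the depot contrast, higher in pgWAT to the right and lower to the left, with the number of genes at the end of each bar. The bottom bar gives all genes tested, with 1783 higher and 1588 lower, and NRF2 target genes were called on both sides (4 and 6 of 23).

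Of 6 tested genes for superoxide dismutases, catalase and copper delivery, 2 were higher, Sod3 and the mitochondrial Sod2 (0.53 ± 0.15, SE, FDR = 0.00456). Cytosolic Sod1 (-0.11, FDR = 0.538) and catalase, Cat (-0.13, FDR = 0.527), did not pass. Of 10 peroxiredoxins and thioredoxins 3 were higher and 4 lower, with Txnip, an inhibitor of thioredoxin, at 0.82 (FDR = 2.29e-05), Prdx5 at 0.70 (FDR = 2.29e-07), mitochondrial Txn2 at -0.57 (FDR = 0.00022) and Txn1 at -0.56 (FDR = 0.00118). Of 8 tested genes of glutathione turnover 3 were higher and 1 lower. Chac1 and Ggt5, which break glutathione down, were at 1.94 (FDR = 6.46e-05) and 1.52 (FDR = 8.04e-05), Slc3a2, the heavy chain of cystine and other amino acid transporters, at 0.56 (FDR = 0.00435) and glutathione synthetase Gss at -0.78 (FDR = 3.49e-05). Of 9 genes of heme and iron handling 2 were higher, the ferritin chains Fth1 (0.51, FDR = 0.0351) and Ftl1 (0.34, FDR = 0.000736), and biliverdin reductase Blvrb was lower (-0.48, FDR = 0.0123). In the order given, the shares called in these 4 lists were 33.3%, 70%, 50% and 33.3%, beside 38.1% of all genes. Without the conflicting libraries they were 33.3%, 40%, 12.5% and 44.4%, beside 24.7%. Of the glutathione genes 0 were then higher and 1 lower. Proliferation markers were also lower in pgWAT, 5 of 6 with a median of -0.68, and 4 of 5 fibroblast markers (median 0.64) and 8 of 11 tested macrophage markers (median 1.13) were higher. So were 3 of 3 tested smooth muscle markers (median 1.52) and 3 of 4 tested mesothelium markers (median 5.41), while the mesothelium marker Krt19 was lower. The summed smooth muscle markers were 598 to 3611 CPM in iWAT and 1370 to 3206 CPM in pgWAT, and the summed mesothelium markers 2.00 to 101 CPM and 62.2 to 194 CPM. The iWAT maxima of both sums were in iWAT female replicate 9, where 6 of the 7 mesothelium markers were at 0. Without the conflicting libraries, again 8 of 11 macrophage, 3 of 3 smooth muscle and 3 of 4 mesothelium markers were higher. Of the proliferation markers 5 of 6 were again lower, but of the fibroblast markers 2 were then higher and 1 lower. Over all genes 20.1% were higher and 17.9% lower, and 13.2% and 11.5% without these libraries. Of the 7 adipocyte markers only Lpl and Fabp4 were tested. Lpl alone was higher with all libraries, and both were without the conflicting ones (1.72, FDR = 1.98e-10, and 0.46, FDR = 0.0232). The adipocyte sum was 209 to 1045 CPM in iWAT and 1248 to 2185 CPM in pgWAT. It was mostly Lpl, with 15458 counts over all libraries beside 1523 of Fabp4. Adipoq, Car3, Plin1, Cidec and Lep had 5 to 108 counts each. Cidec and Lep were at 0 in all libraries labelled pgWAT female. The part of these markers in the values of the 10 genes and in these list counts was not tested.

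When the conflicting libraries were left out, the depot calls of Dio3, Selenoh, Scly, Me1, Abcc1, Nfe2l2, Mafk, Sod2, Txnip, Prdx5, Txn2, Gss, Fth1 and Ftl1 were held in direction and threshold. Those of Gpx7, Gpx8, Gsta4, Maff, Cul3, Txn1, Chac1, Ggt5, Slc3a2 and Blvrb were lost, with an FDR of 0.0554 to 0.557. The fold moved most in Chac1, from 1.94 to 0.68, and in Ggt5, from 1.52 to 0.38 on the log2 scale.

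Between the sexes in iWAT, 3 of the 80 tested list genes were higher in male and 3 lower, beside 1.08% and 2.13% of all genes. Beside Selenop, Hmox1 and Sod3 these were the epoxide hydrolase Ephx1 (0.75, FDR = 0.00678), higher in male, and Chac1 (-2.29, FDR = 0.00883) and Slc3a2 (-0.70, FDR = 0.0278), lower in male. Chac1 was at 0 in 4 of 10 iWAT male libraries, so its fold is set by few counts.

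Genes that varied most like each member were looked up as Pearson correlations of log2 CPM after subtracting group means, over the 29 libraries, which share a plate and in part a culture. The group means use the pgWAT labels that 5 libraries contradicted or met in part, so the closest genes in the 19 iWAT libraries alone are given as well. Selenop varied most like Islr (0.89), Maged2 (0.86) and Fcgrt (0.85), and Gpx3 like Cgnl1 (0.95), Tmem86a (0.94) and E330013P04Rik (0.94). Nqo1 varied most like Prl2c2 (0.76), Prdx1 (0.74) and Fam20c (0.72), and Hmox1 like Atp6v0c (0.84), Ccl2 and Tubb2a (0.80 each). Txnrd1 varied most like Tubb4b (0.83), Ddx39 (0.79) and Mcm5 (0.78), and Srxn1 like Snrpg, Hnrnpab (0.81 each) and S100a4 (0.80). The closest genes of Gpx1 were Ndufs7 (0.87), Sf3b5 (0.86) and Ncln (0.85), those of Gpx4 were Gm26619 (0.84), Rpl8 and Rps16 (0.83 each). For Sod3 they were Itm2b (0.72), Enpp1 (0.71) and Cyp4b1 (0.70), and for Gclm, the least abundant per length, Plk1 (0.68), Ppp1ca (0.67) and Mdh2 (0.66).

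In iWAT alone the closest genes were mostly other ones. For Selenop they were Lrrc17 (0.91), Col6a1 and the matrix protein Mgp (0.90 each), and for Gpx3 they were Col6a2 (0.88), Cd81 (0.86) and Hic1 (0.84), where Col6a1 and Col6a2 encode chains of collagen VI. Those of Nqo1 were Prdx1 (0.87), Atic (0.82) and Anxa1 (0.81), and those of Hmox1 were Mpc1 (0.72), Eif4a3 (0.71) and Tnfrsf12a (0.69). Txnrd1 was closest to Prmt7 (0.85), Tubb4b (0.84) and Clasp1 (0.83), Srxn1 to Ndufb3 (0.85), Snrpe (0.76) and Snrpd2 (0.74), and Gclm to Actr8 (0.82), Tmem132a (0.76) and Gadd45g (0.74). Gpx1 was closest to Sf3b5 (0.95), Gpx4 to Rpl8 (0.91), Rps16 (0.88) and Gstp1 (0.86), and Sod3 to Enpp1 (0.84), Samd9l (0.83) and Cyp4b1 (0.82). Among the 3 closest in both sets of libraries were Prdx1 for Nqo1, Tubb4b for Txnrd1, Sf3b5 for Gpx1, Rpl8 and Rps16 for Gpx4, and Enpp1 and Cyp4b1 for Sod3.

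Among the members themselves, the pairs with the largest correlations were Gpx3 with Hmox1 (-0.83), Txnrd1 with Srxn1 (0.66) and Txnrd1 with Sod3 (-0.64), over 29 libraries. In the 19 iWAT libraries alone Gpx3 with Hmox1 was -0.17, Selenop with Gpx3 was 0.73 (0.06 over all libraries), Txnrd1 with Sod3 was -0.77 and Txnrd1 with Gpx3 was -0.71. These are descriptions of wells that share cultures, and carry no test.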

How the data were processed

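Smart-seq3 libraries of 29 bulk SVF cultures were analysed. The authors trimmed reads, assessed them with FastQC 0.11.9 and STAR 2.7.10a on GRCm39, and quantified transcripts with Salmon 1.9.0, and deposited a table of expected counts summed per gene (UMI and other reads together, not normalized), which were rounded here. Reads without molecular identifiers are included, so depth limits cover counting error only. Symbols came from Ensembl IDs (52029 of 56953 features, 91.4%). Tests used edgeR 4.0.16 under R 4.3.3, with a quasi-likelihood F test (two-sided) after TMM and filterByExpr, 1 term per group and all 29 libraries, and called at a Benjamini-Hochberg FDR below 0.05 over 8853 genes. Alternatives used DESeq2 1.42.0, limma-voom 3.58.1, other scalings, no filter, well column, within-column fits, and leaving out libraries. List counts without the conflicting libraries were added after the data were seen. Replicate numbers follow accession order and pair nothing. The scripts were tested on simulated data. Named were the 10 members in every contrast, up to 4 called genes per other list with the largest depot change, called list genes of the iWAT sex contrast, and Nfe2l2, Keap1, Bach1, Sod1, Sod2 and Cat. Likeness used genes with an average log2 CPM of at least 5. Members and lists were chosen with earlier results of these data known. Sequences are from Gencode vM21 and RefSeq, both on GRCm38, another build than the authors'.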

Additional observations from a re-analysis of the deposited data

Results flagged for a closer look

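Among 40 tests of single libraries against their group (10 genes in 4 groups), 2 stood out. With 40 tests some can be flagged where nothing differs, so the 2 are described without a verdict. The library iWAT female replicate 1 had 116 CPM of Nqo1, far above the other 8 libraries of its group, of which the highest had 65.8 CPM. In pgWAT female replicate 3, as labelled, Gclm was at 33.4 CPM, from 15 counts, while the next of its group had 16.7 CPM. That library also had Y-linked counts and 0 counts of Xist.

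The depot difference of Selenop differed between the labelled sexes in the test of the difference itself (-1.62 on the log2 scale, FDR = 0.0489, edgeR). This call was lost in 24 of 36 alternative settings. Among them were limma-voom (FDR = 0.0728), well column as a factor (FDR = 0.072) and leaving out the conflicting libraries (-1.16, FDR = 0.218). Selenop was 0.56 higher in pgWAT within the libraries labelled male (FDR = 0.121), where it passed with well column as a factor (0.86, FDR = 0.0106) and within well column 9 (0.86, FDR = 0.00138), and 2.18 higher within those labelled female (FDR = 1.18e-08). Both depot contrasts use pgWAT labels that 4 of 10 libraries contradicted and 1 met in part.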

How the results depend on the processing

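The 60 values (10 genes in 6 contrasts) were recomputed under 2230 alternative settings in all, and 2147 kept direction and side of the threshold, 55 lost a call, 26 gained one and 2 reversed. The reversals were Hmox1 within labelled male in well column 9 (-1.02) and Gpx3 in the depot by sex contrast without the conflicting libraries (-2.42). The number of members called within labelled male was 7 in well column 9, where both pgWAT male libraries were conflicting ones, and within labelled female 3 in column 8. In the iWAT sex contrast it was 5 with no filter and 5 without the conflicting libraries, and 1 to 4 leaving out 1 library. In the pgWAT sex contrast it was 3 without the conflicting libraries, against 5.65% of all genes. In the depot by sex contrast it was 0 with limma-voom, with well column as a factor and with library totals alone, and 0 to 1 leaving out 1 library. For the other settings of this paragraph the share of all genes called was not counted, so these counts have no background beside them. The cause of the changes was not tested. The median log2 fold change of all genes stayed between -0.049 and 0.037 over the 6 contrasts under TMM, RLE and totals. No paired analysis was possible because the labels carry no replicate numbers and those used here follow accession order. Depth limits Gclm, Sod3 and Nqo1, with counts as low as 0, 1 and 4 in single libraries.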
